A study of Mus musculus with 6 samples.

Results

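The ligands of the tumor necrosis factor (TNF) superfamily were examined in endothelial cells (ECs) sorted from MC38 tumors of WT and Apelin-KO mice. The members were Tnf, Tnfsf4, Tnfsf9, Tnfsf10, Tnfsf12, Tnfsf13b, Tnfsf15, Tnfsf18, Fasl and Ltb, which are 10 of the 24346 genes measured. They are relatives of Tnfsf18, a gene shown in the study's heat map of genes that differ between the genotypes, and Ltb is in that heat map as well. Both genes were therefore picked on the same 6 samples described here, and the difference between WT and Apelin-KO in the members is given as a description without a test.

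The study asked which EC genes differ in tumors grown with and without Apelin, a secreted peptide that acts on the receptor APJ of ECs. MC38, a mouse colon carcinoma line, was inoculated subcutaneously into C57BL/6 mice, and cells positive for the EC marker CD31 and negative for the leukocyte marker CD45 were sorted from the digested tumors for RNA-sequencing. The groups were 3 WT samples and 3 Apelin-KO samples, both labelled saline. The KO mice lack Apelin in all their own cells from the germ line on, so the sorted ECs were not its only site of loss. The inoculated MC38 cells were a purchased line and did not carry the knockout. Values are FPKM, the number of sequenced fragments divided by transcript length and by the size of the library. Levels can then be set beside each other only roughly. The sum of FPKM over all genes still differed between samples, from 489396 in WT 2 to 529018 in Apelin-KO 1.

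Most TNF superfamily ligands are made as membrane proteins that assemble into trimers and are often shed in soluble form. They bind receptors of the TNF receptor superfamily, which recruit TRAF adaptors and switch on NF-κB, or carry a death domain and start apoptosis. Several members act as costimulatory signals for T cells, and ECs both display some of these ligands and respond to TNF and lymphotoxin by putting out adhesion molecules and chemokines.

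Apln, the gene deleted in the KO mice, stood at 432, 435 and 504 FPKM in WT, against 9.96, 17.5 and 24.3 FPKM in Apelin-KO, as labelled. By limma it was 4.73 higher in WT on the log2(FPKM + 1) scale (SE 0.29, adjusted p = 0.00747), and it was the only one of 10964 genes tested with an adjusted p under 0.05, which is 0.00912% of them. No gene, Apln included, passed in the fits without WT 2, without Apelin-KO 2 or with each gene's own variance, although the lowest WT level of Apln stayed far above the highest Apelin-KO level. The endothelial markers Pecam1 (553 to 846 FPKM), Cdh5 (155 to 294 FPKM) and Kdr (299 to 374 FPKM) were high in all 6 samples. The files give no read numbers, and an estimate from the steps of the low FPKM values put the depth at 9000000 to 10270000 reads per sample. Markers of other cells were measured too. The summed level of 10 macrophage markers was 224 to 866 FPKM in WT and 92.8 to 274 FPKM in Apelin-KO, with the highest value in WT 2 and the lowest in Apelin-KO 1.

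The promoters of Tnfsf18, Ltb and Tnf are shown first. Tnfsf18 and Ltb are the members whose WT samples all lay above all Apelin-KO samples, and Tnf, the gene that gave the family its name, is the neighbor of Ltb. The sequences are the bases before the annotated start, 5′ to 3′ on the strand of the gene, from RefSeq (GRCm38.p6). Capitals mark matches to the motifs searched.
Tnfsf18 promoter, chr1:161494407-161494654, plus strand: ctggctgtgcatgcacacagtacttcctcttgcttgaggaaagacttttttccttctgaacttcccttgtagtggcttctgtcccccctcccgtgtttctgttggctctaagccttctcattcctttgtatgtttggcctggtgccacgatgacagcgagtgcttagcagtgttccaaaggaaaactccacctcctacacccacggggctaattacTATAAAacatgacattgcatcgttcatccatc
Ltb promoter, chr17:35194257-35194438, plus strand: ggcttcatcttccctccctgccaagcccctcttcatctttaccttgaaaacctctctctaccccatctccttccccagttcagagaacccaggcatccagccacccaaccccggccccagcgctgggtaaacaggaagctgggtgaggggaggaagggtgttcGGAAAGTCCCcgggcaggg
Tnf promoter, chr17:35202008-35202257, minus strand: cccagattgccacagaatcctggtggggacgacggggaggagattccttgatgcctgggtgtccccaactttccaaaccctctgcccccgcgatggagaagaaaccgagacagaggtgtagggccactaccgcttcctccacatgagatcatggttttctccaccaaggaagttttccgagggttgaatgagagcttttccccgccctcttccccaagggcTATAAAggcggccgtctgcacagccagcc

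Promoter entries were found for 7 of the 10 members, and both strands were searched in the 250 bases before each RefSeq start, from which positions are counted. The letters TATAAA, the core of a TATA box, occurred in the Tnfsf18 promoter with the first base at -34 from the RefSeq start and in the Tnf promoter at -29. They were present in 12.4% of the 32851 mouse promoters of the table. The κB consensus to which NF-κB binds matched once in the Ltb promoter, on the minus strand with its first base at -87, and the RefSeq start of Ltb lies 68 bases inside the gene as GENCODE annotates it. This consensus was present in 7.25% of all promoters. The core of the interferon-stimulated response element (2.98% of all promoters) and the AP-1 motif TGANTCA (6.75%) occurred in none of the 3 promoters shown. Among the 7 members searched, both were found before the second RefSeq start of Tnfsf13b only, in bases that GENCODE places inside the gene, and the AP-1 motif there matches on both strands. A match is a description of the sequence only.

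Family members sit in clusters on the chromosomes, and positions are given on GRCm38 from the GENCODE annotation. Tnfsf4 (chr1:161395409-161418410, plus strand, 3 exons), Tnfsf18 (chr1:161494655-161505290, plus strand, 3 exons) and Fasl (chr1:161780689-161788495, minus strand, 4 exons) follow each other on chromosome 1, with gaps of 76244 and 275398 bases. Ltb (chr17:35194439-35196320, plus strand, 3 exons) and Tnf (chr17:35199381-35202007, minus strand, 4 exons) are 3060 bases apart in the major histocompatibility complex. The lymphotoxin gene Lta, on the minus strand and listed at 0 in all 6 samples, lies 1157 bases from Tnf. Tnfsf9 (chr17:57105325-57107757, plus strand, 3 exons) lies elsewhere on chromosome 17, 38239 bases from Cd70, which was also listed at 0 throughout. Tnfsf10 (chr3:27317028-27342427, plus strand, 5 exons) and Tnfsf13b (chr8:10006467-10039072, plus strand, 7 exons) have no neighbor from the family.

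The ligands were low in these ECs apart from Tnfsf10. The mean over the 6 samples reached 1 FPKM for 3 members and stayed under it for 7, and the median of the members' means was 0.561 FPKM. The summed level of the 10 ligands was 25.1, 28.0 and 30.7 FPKM in WT and 22.7, 24.1 and 26.0 FPKM in Apelin-KO, so the groups overlapped, and Tnfsf10 alone made up 57.2% to 74.3% of it. In order of mean level the members ran Tnfsf10, Tnfsf12, Tnfsf9, Ltb, Tnfsf13b, Tnf, Tnfsf18, Tnfsf4, Fasl and Tnfsf15. Only the steps from Tnfsf10 to Tnfsf12 and from Tnfsf12 to Tnfsf9 separated neighbors whose ranges over the samples did not overlap. By group mean, 8 members were higher and 2 lower in WT, beside 51.0% of the 16341 genes above 0 in a sample that were higher. All WT samples lay above all Apelin-KO samples for 2 members, Tnfsf18 and Ltb, and below them for 1, Tnfsf12, and the groups overlapped for 7. Over those 16341 genes, WT lay wholly above in 6.65% and wholly below in 5.99%, and nothing is read from the members' counts because the contrast entered their choice.

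**Figure D1:**
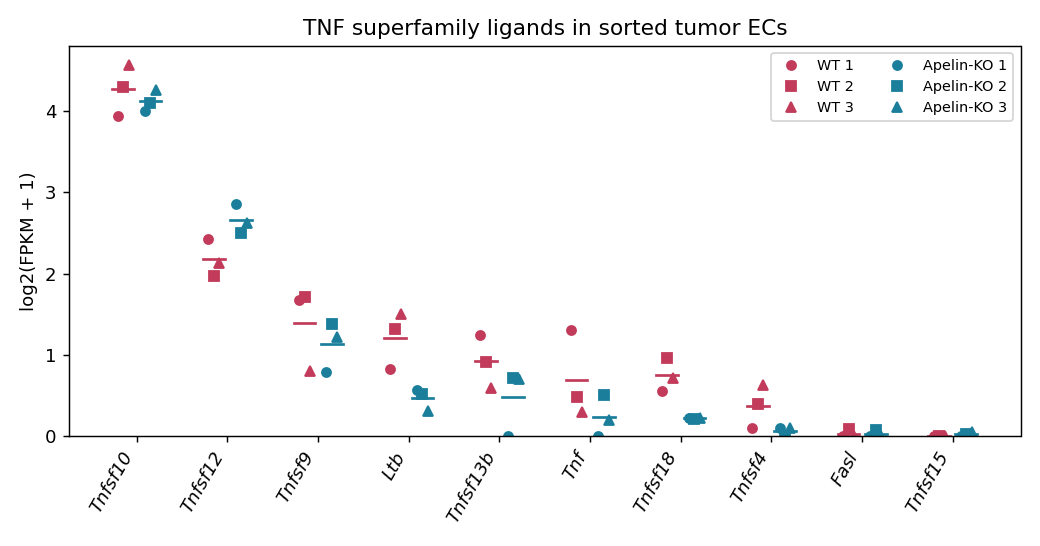
Level on the log2(FPKM + 1) scale of the 10 TNF superfamily ligands in each of the 3 WT and 3 Apelin-KO samples (circles, squares and triangles for replicates 1, 2 and 3, lines for the group means), in order of mean level. Tnfsf10, at 14.4 to 22.8 FPKM, lies above the other ligands in every sample, and 7 ligands average under 1 FPKM.

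Tnfsf18 encodes the ligand of the costimulatory receptor GITR, which is found on regulatory and activated T cells, and ECs are among the cells known to make it. Its level was 0.475, 0.951 and 0.643 FPKM in WT 1, 2 and 3 and 0.171, 0.156 and 0.170 FPKM in Apelin-KO 1, 2 and 3. The lowest WT sample stood above the highest Apelin-KO sample, and the KO samples were close to each other. The means were 0.690 ± 0.241 FPKM (SD, n = 3) and 0.166 ± 0.00839 FPKM (SD, n = 3), a ratio of 4.16, and the difference on the log2(FPKM + 1) scale was 0.53 (SE 0.12). These levels rest on few reads, estimated at 9, 16 and 11 in WT and at 3 in each Apelin-KO sample, or 36 against 9 in all. The exact 95% Poisson interval of 3 reads runs from 0.619 to 8.77, that of 9 reads from 4.12 to 17.1 and that of 16 reads from 9.15 to 26.0. Such intervals cover counting error only, and the narrow spread of the KO samples is that of 3 values which all correspond to about 3 reads.

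Tnfsf4, the OX40 ligand, costimulates activated T cells and is also known from ECs. It was at 0.0700, 0.315 and 0.542 FPKM in WT and at 0.0760, 0 and 0.0750 FPKM in Apelin-KO. WT 1 was level with the KO samples, so the groups overlapped, while WT 2 and WT 3 were above them. The ratio of the means was 6.14, on estimated read numbers of 1.17 to 8.17 in WT and 0 to 1.17 in Apelin-KO, and the log2 difference was 0.30 (SE 0.16). Fasl, which triggers apoptosis through Fas, was at 0.0660 FPKM in WT 2, at 0.0580 FPKM in Apelin-KO 2 and listed at 0 in the other 4 samples, which is about 1 read in each of those 2 libraries. The chromosome 1 cluster thus held Tnfsf18, with reads in all 6 samples, beside Fasl, which was at the limit of detection.

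**Figure D2:**
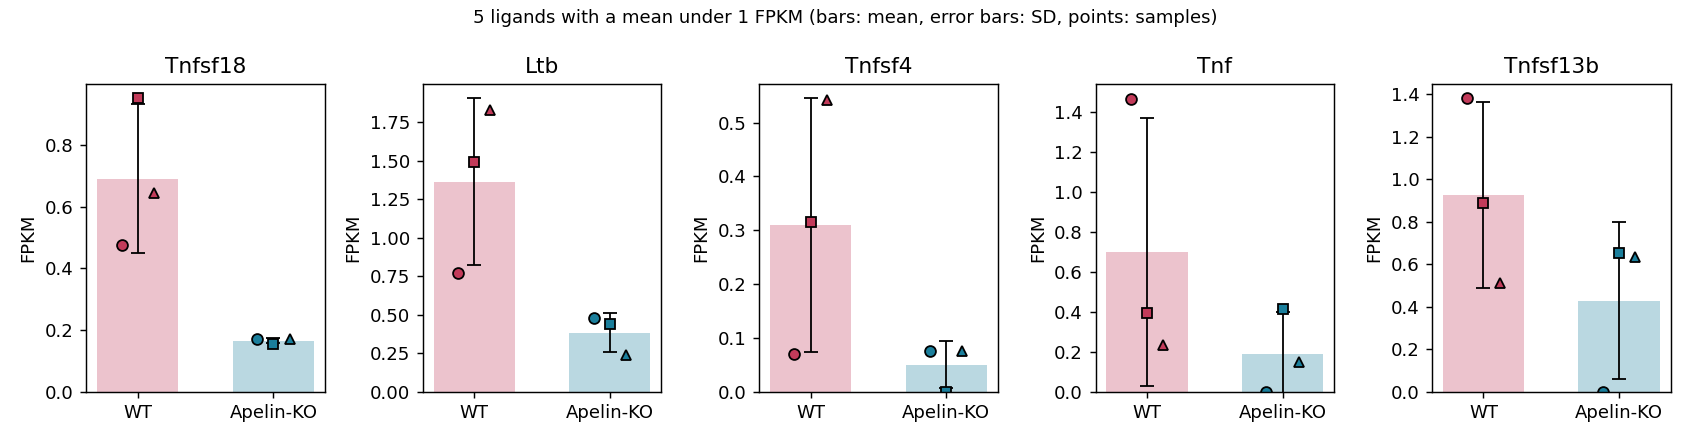
FPKM of 5 low ligands by genotype, with circles, squares and triangles for replicates 1, 2 and 3 and bars for the mean and SD (n = 3, cut at 0). Tnfsf18 and Ltb are the ligands shown whose WT samples lie wholly above the Apelin-KO samples.

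Ltb encodes lymphotoxin beta, which anchors lymphotoxin to the cell surface and signals through Ltbr, and it is known mainly from lymphocytes. It was at 0.772, 1.49 and 1.83 FPKM in WT and at 0.478, 0.437 and 0.237 FPKM in Apelin-KO. Every WT sample was above every KO sample, with a gap between WT 1 and Apelin-KO 1 that was small beside the spread within WT. The means were 1.37 ± 0.542 FPKM (SD, n = 3) and 0.384 ± 0.129 FPKM (SD, n = 3), a ratio of 3.56, and the log2 difference was 0.75 (SE 0.22). The estimated reads were 7.53, 12.9 and 16.2 in WT and 4.30, 4.31 and 2.15 in Apelin-KO.

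As a sum, markers of T and NK cells moved in the same direction as Ltb and Tnfsf18. The summed level of 11 such markers was 4.91, 9.0 and 5.0 FPKM in WT and 1.29, 3.58 and 1.30 FPKM in Apelin-KO, with 10 of 11 higher and 1 lower in WT by group mean. The highest of them in every sample was Nkg7, a gene of cytotoxic granules, at 2.10, 4.56 and 4.12 FPKM in WT and 0.526, 1.76 and 0.695 FPKM in Apelin-KO. Nkg7 made up 4.12 of the 5.0 FPKM in WT 3, and the separation of the sums rested on it. Of the others, Cd3d, Cd3e, Cd3g, Cd2, Cd4, Cd8a and Klrk1 were lower in WT 3 than in Apelin-KO 2, and Cd8b1 was higher. Gzmb and Ncr1 were listed at 0 in both. The T cell receptor genes were at 0 to 0.262 FPKM for Cd3d, 0.0860 to 0.239 FPKM for Cd3e and 0 to 0.542 FPKM for Cd3g. All 5 pan-leukocyte markers had a higher WT mean, with sums of 63.8 to 180 FPKM in WT and 38.2 to 72.5 FPKM in Apelin-KO, although the cells were sorted as CD45 negative and Ptprc, which encodes CD45, was at 0.0430 to 4.84 FPKM. Dendritic cell markers summed to 2.46 to 3.57 FPKM in WT and to 1.97 to 3.01 FPKM in Apelin-KO. Sums of 3 further lists were 192 to 332 FPKM against 125 to 197 FPKM for fibroblast markers, 130 to 173 FPKM against 174 to 206 FPKM for pericyte markers, and 7.19 to 11.5 FPKM against 8.72 to 20.8 FPKM for tumor cell markers. The part of leukocyte or stromal RNA in the ligand levels was not tested. In sorted bulk RNA, fewer cells of a type and less RNA per cell cannot be told apart.

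**Figure D3:**
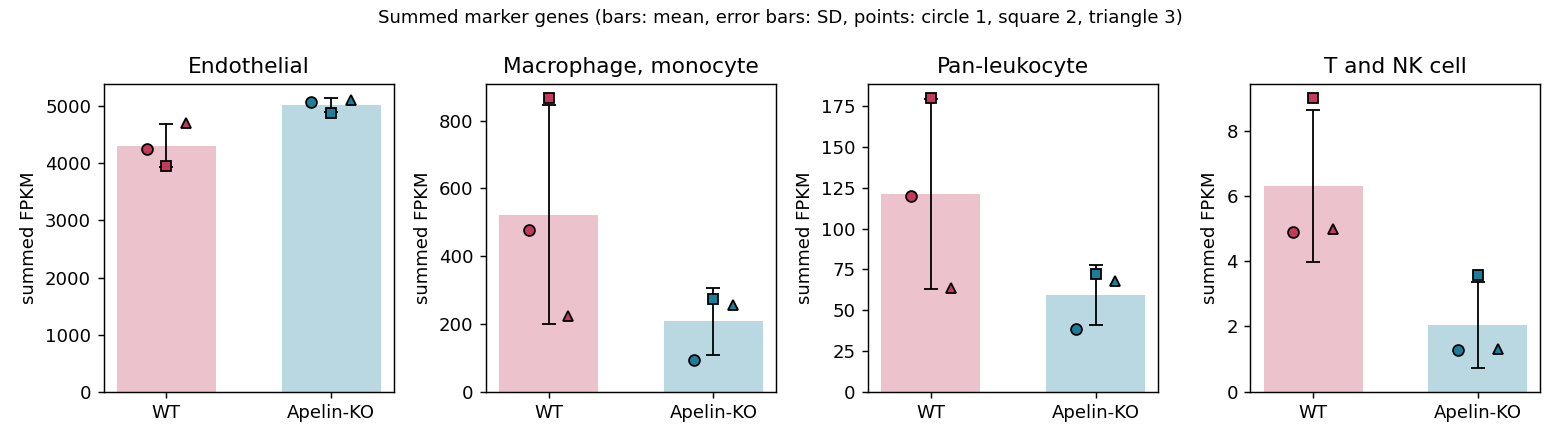
Summed FPKM of endothelial, macrophage and monocyte, pan-leukocyte, and T and NK cell markers by genotype, each panel with its own axis (bars, mean; error bars, SD, n = 3; points, samples). Endothelial sums are the highest of the 4 in every sample, and the T and NK cell sums lie higher in all WT samples (4.91 to 9.0 FPKM) than in all Apelin-KO samples (1.29 to 3.58 FPKM). The gap between the T and NK cell sums rests on Nkg7.

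Tnf, the main inflammatory activator of ECs, was at 1.47, 0.395 and 0.233 FPKM in WT and at 0, 0.416 and 0.150 FPKM in Apelin-KO. WT 1 stood well above the rest and Apelin-KO 1 was listed at 0, while the other 4 samples overlapped. The means of 0.700 ± 0.673 FPKM (SD, n = 3) in WT and 0.189 ± 0.211 FPKM (SD, n = 3) in Apelin-KO differed by 0.46 on the log2 scale (SE 0.34), and without WT 1 the difference was 0.16. Tnf and Ltb, neighbors on chromosome 17, thus had their highest values in different samples.

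Tnfsf13b encodes BAFF, a survival factor for B cells. It was at 1.38, 0.889 and 0.509 FPKM in WT and at 0, 0.650 and 0.635 FPKM in Apelin-KO. As for Tnf, the highest value was in WT 1 and the lowest in Apelin-KO 1, and the other samples overlapped. The log2 difference was 0.44 (SE 0.30), and without Apelin-KO 1 it was 0.20. The pan-leukocyte marker sum was 120, 180 and 63.8 FPKM in WT and 38.2, 72.5 and 67.6 FPKM in Apelin-KO, and its part in the Tnfsf13b level was not tested.

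Tnfsf9, the ligand of 4-1BB, another costimulatory receptor of T cells, was at 2.2, 2.27 and 0.743 FPKM in WT and at 0.727, 1.61 and 1.34 FPKM in Apelin-KO. WT 1 and WT 2 were above all KO samples, but WT 3 was level with the lowest of them. The means were 1.74 ± 0.862 FPKM (SD, n = 3) and 1.22 ± 0.452 FPKM (SD, n = 3), with a log2 difference of 0.26 (SE 0.35).

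Tnfsf10 encodes TRAIL, which triggers apoptosis through death receptors and was the leading ligand of the family here. It was at 14.4, 18.7 and 22.8 FPKM in WT and at 15, 16.1 and 18.2 FPKM in Apelin-KO. The samples of the 2 groups were interleaved, with both the lowest and the highest value in WT. The means of 18.6 ± 4.22 FPKM (SD, n = 3) and 16.4 ± 1.60 FPKM (SD, n = 3) differed by 0.15 on the log2 scale (SE 0.20), and without WT 3 the difference was 0.00. With 674 to 1003 estimated reads per sample, Tnfsf10 was the best measured member.

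Tnfsf12 encodes TWEAK, which acts on ECs through the receptor Fn14, and was the member whose WT samples all lay below the KO samples. It was at 4.39, 2.92 and 3.39 FPKM in WT and at 6.22, 4.67 and 5.17 FPKM in Apelin-KO. The closest samples were WT 1 and Apelin-KO 2. The means were 3.56 ± 0.75 FPKM (SD, n = 3) and 5.35 ± 0.791 FPKM (SD, n = 3), and the log2 difference was -0.48 (SE 0.17). The summed endothelial markers were also lower in all WT samples, at 3961 to 4714 FPKM against 4876 to 5106 FPKM, with 0 of 12 markers higher in WT by group mean. The part of EC content in the Tnfsf12 level was not tested.

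The value of Tnfsf12 depends on how its reads were divided. The gene (chr11:69686250-69695849, minus strand, 7 exons) lies 465 bases from Tnfsf13, which encodes APRIL, and the read-through gene Tnfsfm13 (chr11:69682577-69696098, minus strand) spans both. Tnfsfm13 was listed at 6.93, 7.29 and 8.12 FPKM in WT and at 8.05, 5.39 and 6.75 FPKM in Apelin-KO, so its groups overlapped. Tnfsf12 and Tnfsfm13 together came to 11.3, 10.2 and 11.5 FPKM in WT and to 14.3, 10.1 and 11.9 FPKM in Apelin-KO, and these sums overlapped too. The share of Tnfsf12 in the pair was 38.7%, 28.6% and 29.4% in WT and 43.6%, 46.4% and 43.4% in Apelin-KO. The groups were thus apart in the share of Tnfsf12 and overlapped in the sum of the pair, and the level of Tnfsf12 itself is uncertain. Tnfsf13 was at 0.0050, 1.59 and 0 FPKM in WT and at 0.539, 1.62 and 0 FPKM in Apelin-KO.

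**Figure D4:**
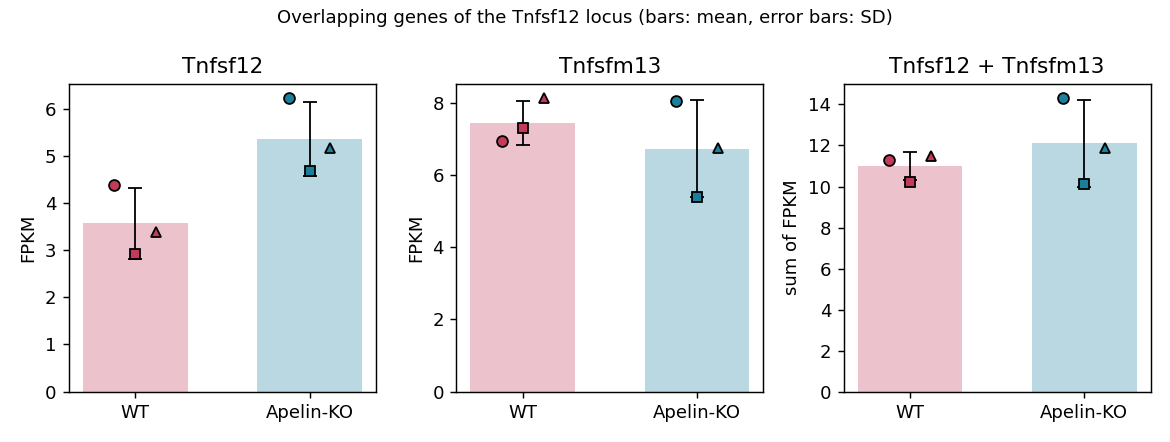
FPKM of Tnfsf12, of the read-through gene Tnfsfm13 and of their sum in the 3 WT and 3 Apelin-KO samples (bars, mean; error bars, SD, n = 3; points, samples). Tnfsf12 is lower in all WT samples (2.92 to 4.39 FPKM against 4.67 to 6.22 FPKM), while the sums overlap.

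Tnfsf15, known as an inhibitor of EC growth and a ligand of DR3, was listed at 0 in all WT samples and in Apelin-KO 1, and its levels in Apelin-KO 2 and 3 were 0.0170 and 0.0370 FPKM, or at most 1.10 estimated reads. Its neighbor Tnfsf8 (chr4:63831308-63861347, minus strand), the CD30 ligand, lies 86194 bases away and was not chosen as a member. Tnfsf8 was at 0.339, 0.328 and 0.859 FPKM in WT and at 0.158, 0.0960 and 0.104 FPKM in Apelin-KO. Its WT samples all lay above the KO samples, as for Tnfsf18 and Ltb, at means of 0.509 ± 0.303 FPKM and 0.119 ± 0.0337 FPKM (SD, n = 3 each). It was under the mean of 1 FPKM needed for the test. Of the 8 other ligands of the family looked at, 4 (Lta, Cd40lg, Cd70 and Tnfsf11) were listed at 0 in all samples, none reached a mean of 1 FPKM, and their sum was 0.216 to 1.92 FPKM. Tnfsf13 (mean 0.626 FPKM), Tnfsf8 (0.314 FPKM) and Eda (0.0598 FPKM), a ligand of skin appendage development, were the highest of them.

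In sum, the receptors were far more abundant than the ligands. The 28 receptors of the superfamily summed to 552 to 699 FPKM per sample, with a median of the gene means of 3.43 FPKM. Of them, 12 had a mean of at least 10 FPKM, 2 of these at least 100 FPKM, while 11 had a mean under 1 FPKM. The highest were Tnfrsf1a, the main TNF receptor, with a mean of 138 FPKM (119 to 158 FPKM), Tnfrsf9, the 4-1BB receptor of Tnfsf9, with a mean of 128 FPKM, and Ltbr, the receptor of lymphotoxin, with a mean of 74.2 FPKM. Tnfrsf12a, which encodes Fn14, had a mean of 32.3 FPKM (22.0 to 38.7 FPKM), and Tnfrsf1b, the second TNF receptor, one of 26.7 FPKM. Of the receptors that bind TRAIL, the death receptor Tnfrsf10b had a mean of 7.54 FPKM (5.72 to 11.7 FPKM). The decoy receptors were higher for Tnfrsf23 (mean 59.3 FPKM) and Tnfrsf22 (mean 30.0 FPKM), and the soluble decoy Tnfrsf11b was at 5.33 to 12.9 FPKM. Fas, the receptor of Fasl, had a mean of 4.09 FPKM.

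Several of the low ligands were without abundant receptors in these cells. Tnfrsf18, the GITR receptor of Tnfsf18, was at 0.164, 0.741 and 0.182 FPKM in WT and at 0.534, 0.485 and 0.132 FPKM in Apelin-KO, with overlapping groups. Tnfrsf4, the OX40 receptor of Tnfsf4, was at 0 to 0.103 FPKM, and Tnfrsf25, the receptor of Tnfsf15, at 0 to 0.232 FPKM. Of the receptors of BAFF, Tnfrsf13b was at 0 to 0.542 FPKM and Tnfrsf13c and Tnfrsf17 were listed at 0 in all samples. Ltb was low while its receptor was abundant. Ltbr was at 70.7, 57.1 and 75.3 FPKM in WT and at 85.3, 77.7 and 79.3 FPKM in Apelin-KO, with WT below the KO samples in each case (limma, unadjusted p = 0.0820). Summed endothelial markers (3961 to 4714 against 4876 to 5106 FPKM) and pericyte markers (130 to 173 against 174 to 206 FPKM) were also lower in all WT samples. Their part in the levels of Ltbr and the other receptors was not tested.

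By limma, 0 of the 17 receptors tested passed an adjusted p under 0.05, with 1 higher and 1 lower in WT at an unadjusted p under 0.05. Over all genes tested, 5.17% were higher and 4.25% lower at that unadjusted threshold, so that 1 of 17 is near the background. The median log2 difference of the receptors was -0.14, beside -0.01 for all genes tested, with 7 receptors positive and 10 negative, against 5209 and 5755 of all genes tested. Tnfrsf11a, the receptor RANK, was at 12.4, 12.6 and 12.6 FPKM in WT and at 9.89, 9.57 and 9.89 FPKM in Apelin-KO. Its WT samples were above the KO samples by 0.33 on the log2 scale (SE 0.09, unadjusted p = 0.00697, adjusted p = 0.501). Tnfrsf8, the CD30 receptor of Tnfsf8, was at 0.931, 1.05 and 1.35 FPKM in WT and at 1.63, 3.47 and 1.61 FPKM in Apelin-KO, lower in WT by limma with a log2 difference of -0.58 (SE 0.22, unadjusted p = 0.0353, adjusted p = 0.515). Apelin-KO 2 was the highest sample, and without it the difference was -0.32. The unadjusted p was 0.0948 without WT 1, 0.0803 without WT 2 and 0.0999 with the gene's own variance in the limma fit. Tnfrsf9 was at 101, 120 and 121 FPKM in WT and at 121, 129 and 175 FPKM in Apelin-KO, a log2 difference of -0.30 (limma, unadjusted p = 0.111).

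**Figure D5:**
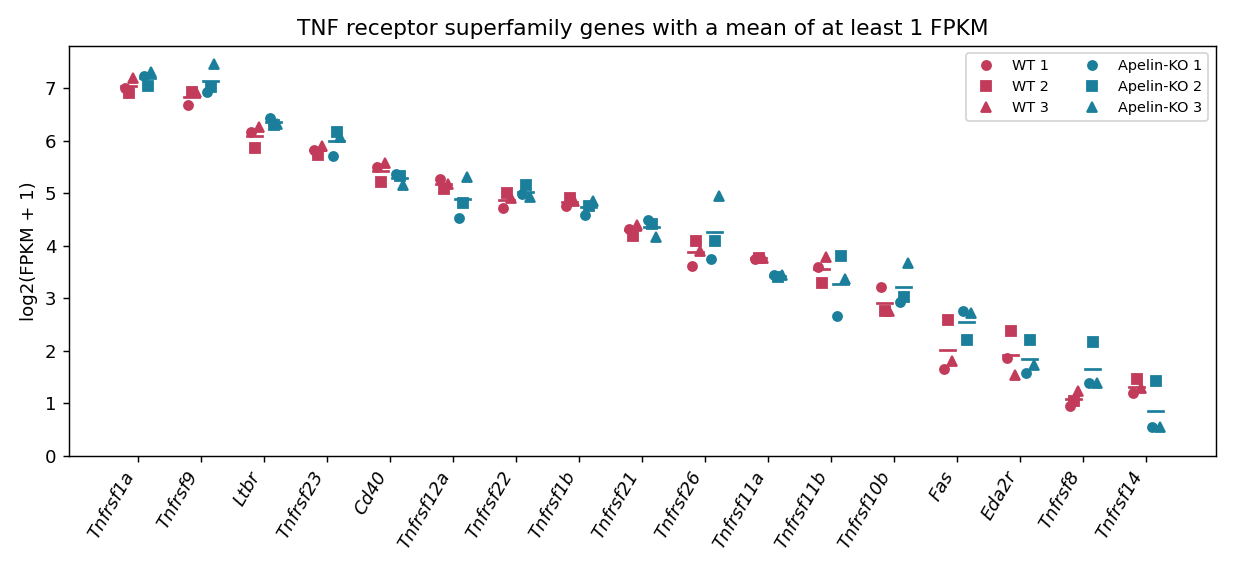
Level on the log2(FPKM + 1) scale of the 17 TNF receptor superfamily genes whose mean reached 1 FPKM, in each WT and Apelin-KO sample (symbols for replicates 1, 2 and 3, lines for the group means). Tnfrsf1a, Tnfrsf9 and Ltbr are the highest, and the groups lie close together for most genes.

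Downstream of the receptors, of 35 signalling genes (adaptors, kinases, caspases, proteases, and NF-κB factors with their regulators), led by Casp8 (mean 83.8 FPKM), Rela (67.4 FPKM) and Ripk3 (64.2 FPKM), 34 were tested and 0 passed an adjusted p under 0.05 by limma. At an unadjusted p under 0.05, 3 were higher and 0 lower in WT, beside 5.17% and 4.25% of all genes tested. By sign, 17 were positive and 17 negative, close to the split of all genes tested. Tank, an adaptor that binds TRAF proteins and tunes NF-κB signalling, was at 16.2, 15.7 and 17.8 FPKM in WT and at 12.3, 12.2 and 9.65 FPKM in Apelin-KO. It stood 0.51 higher in WT on the log2 scale (SE 0.12, limma unadjusted p = 0.00439, adjusted p = 0.501). Nfkbie, an inhibitor of NF-κB, was at 14.3, 14.9 and 16.8 FPKM in WT and at 12, 14.0 and 11.3 FPKM in Apelin-KO (log2 difference 0.29, SE 0.12, limma unadjusted p = 0.0470, adjusted p = 0.525). Without WT 3 its unadjusted p by limma was 0.147, with a replicate block it was 0.0906 and with the gene's own variance 0.0572. Nfkbie passed 0.05 in 1 of the 6 fits that left out a sample.

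Genes that TNF is known to induce through NF-κB had a median of the gene means of 12.1 FPKM, with 20 of 25 at a mean of 1 FPKM or more. The 25 targets looked at summed to 736 to 1232 FPKM, led by Nfkbia (mean 266 FPKM), Cxcl10 (228 FPKM) and Ifngr2 (94.6 FPKM). By limma, 0 of the 20 tested passed an adjusted p under 0.05, and 1 was higher and 0 lower in WT at an unadjusted p under 0.05, where 1 of 20 is near the 5.17% of all genes tested. The median log2 difference was 0.10, with 13 positive and 7 negative, beside -0.01 and a split of 5209 and 5755 over all genes tested. The gene that was higher, Vcam1, encodes an adhesion molecule for leukocytes and was at 54.9, 85.9 and 45.6 FPKM in WT and at 21.2, 36.5 and 36.2 FPKM in Apelin-KO. All WT samples were above all KO samples, by 0.96 on the log2 scale (SE 0.29, limma unadjusted p = 0.0129, adjusted p = 0.501), and its unadjusted p was 0.0591 with the gene's own variance. Macrophage markers (866 and 92.8 FPKM) and fibroblast markers (332 and 125 FPKM) also had their highest sums in WT 2 and their lowest in Apelin-KO 1, like Vcam1, and their part in its level was not tested. An exact permutation test of 3 against 3 samples cannot give a two-sided p below 0.1. Outside the own-variance fit, limma p-values here rest on a variance moderated over all genes tested, not only on the spread of a gene's samples. The labels do not say whether each sample came from a single mouse.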

How the data were processed

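RNA-sequencing was done by the authors on sorted CD31+ CD45- cells of MC38 tumors, with 3 samples from WT and 3 from Apelin-KO mice and stranded mRNA libraries. The authors mapped reads to mm10 and deposited FPKM, 1 value per gene and sample. The submitters' processing notes name bcl2fastq 2.17.1.14, TopHat2 2.1.1, Bowtie2 2.2.4, SAMtools 1.0 and Cufflinks 2.2.1, while the methods of the study name other versions of some of them. The annotation and the strand setting are not given in the sources used here. Saline is in the labels, and the study's text does not mention it for this experiment.

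Deposited FPKM were used as they are, on the scale log2(FPKM + 1), so that differences of low genes are understated. Genes whose mean over the samples reached 1 FPKM were tested with limma 3.58.1 in R 4.3.3 (two-sided moderated test, Benjamini-Hochberg adjustment over 10964 genes, WT minus Apelin-KO). The difference of a member has no p, and its SE comes from the spread of 3 samples a group. Depth was estimated as the read number at which low FPKM of 3742 genes with 1 transcript over 700 bases came closest to whole reads, assuming 200-base fragments, and 67.2% to 69.7% then lay within 0.1 of a whole read, against 20% by chance. Reads of single genes use the longest coding transcript and are approximate. No count test was run. Python 3.11.15 with numpy 2.4.6, pandas 2.3.3, scipy 1.17.1 and matplotlib 3.10.9 was used. The script for the comparison was tested on simulated data. Promoters come from RefSeq (GRCm38.p6) and the printed sequences end before the most upstream annotated start, while motifs were searched in all 250 bases before the RefSeq start.

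The members, the lists of ligands, receptors, signalling genes and NF-κB targets, and the marker lists were chosen with earlier results of these data known. The result of 1 marker list is not reported here. Named genes are all members, their receptors and family neighbors, the 3 highest genes of each list, list genes with an unadjusted p under 0.05 and groups that do not overlap, and Apln. Alternatives changed the pseudocount, filter, scaling, variance, block and samples.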

Additional observations from a re-analysis of the deposited data

How the results depend on the processing

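Over 80 alternative values of the members' log2 differences, 74 stayed within the spread between replicates and 6 moved, all with a pseudocount of 0.1 FPKM: Tnf 1.44, Tnfsf4 1.29, Tnfsf13b 1.34, Tnfsf15 -0.23, Tnfsf18 1.53 and Ltb 1.56. No called sign changed, and Fasl stayed near 0. Leaving out each sample in turn gave 0.42 to 0.62 for Tnfsf18, 0.61 to 0.95 for Ltb, -0.61 to -0.38 for Tnfsf12, 0.00 (without WT 3) to 0.32 (without WT 1) for Tnfsf10, 0.09 (without Apelin-KO 1) to 0.56 (without WT 3) for Tnfsf9, 0.18 (without WT 3) to 0.44 for Tnfsf4, 0.16 to 0.66 for Tnf and 0.20 to 0.61 for Tnfsf13b. Genes at an adjusted p under 0.05 numbered 2 with no filter on mean FPKM and 0 by the unmoderated test with each gene's own variance, where 376 were higher and 407 lower in WT at an unadjusted p under 0.05. They numbered 0 to 3 without 1 sample: 0 without WT 2 or Apelin-KO 2, 2 without WT 3 or Apelin-KO 1, and 3 without WT 1. At an unadjusted p, 312 to 743 genes were higher and 224 to 537 lower without 1 sample, where the 312 and 224 were without WT 2, 361 higher without WT 1 and 289 lower without Apelin-KO 3. Of the pathway genes, 8 were higher and 2 lower with no filter, 0 lower with own variance, and 3 to 10 higher and 0 to 3 lower without 1 sample, the 3 higher without WT 1 or WT 2 and the 10 without Apelin-KO 2. The cause was not tested. Same-numbered samples did not deviate together (correlations of -0.14, 0.21 and -0.02), and with a replicate block 1 gene passed the adjusted p, 529 were higher and 364 lower, and 2 pathway genes were lower. Few reads limit the low ligands.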
